A study of Rattus norvegicus with 6 samples.

Results

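Prostate lineage and androgen-response genes were examined in PAIII tumors of Lobund-Wistar rats to describe the prostate identity of this tumor at the mRNA level. The set was a list of 8 gene symbols, Foxa1, Tmprss2, Folh1, Pbsn, Steap1, Steap2, Steap4 and Trp63, and its members were the rows that carry these symbols in a table of 17557 rows and 17030 symbols. 7 of the 8 symbols named a row, each on 1 row. Trp63 named none, and its row under the rat symbol Tp63, which RefSeq lists as the same gene, is given for description only.

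PAIII is a transplantable prostate adenocarcinoma line that arose in the Lobund-Wistar strain and is hormone-resistant. All 6 rats were immunologically intact Lobund-Wistar animals that received PAIII cells under the skin of the flank at 2 months of age. The digitoxin group (rats A1, A6 and A12) received the cardenolide digitoxin, an inhibitor of the sodium-potassium pump, at 0.03 mg/kg into the peritoneum every day from day 10, and the vehicle group (rats B5, B9 and B14) received vehicle alone, with harvest on day 40. Each library pooled random micropunches of viable primary tumor from 1 rat, and the treated rats were picked for low, the control rats for high, serum IL-6 and CINC-1, so that treatment and serum marker level cannot be told apart. All tumors came from the same cell line, and a tumor punch holds host cells beside the tumor cells. Levels are in FPKM, a fragment count scaled by library size and by transcript length, which can therefore be compared between genes.

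In the prostate, androgens drive gene expression in the luminal secretory cells, and FOXA1 is the pioneer factor that opens chromatin at androgen-responsive sites. The classical targets include secreted proteins such as probasin (Pbsn), a rodent prostate secretory protein, and membrane proteins such as the serine protease TMPRSS2. FOLH1, also called prostate-specific membrane antigen, is a membrane carboxypeptidase, the STEAP proteins are a family of membrane proteins of prostate and other epithelia, most of which reduce iron and copper (STEAP1 lacks the oxidoreductase domain of the others), and p63 marks basal epithelial cells.

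The 250 bases upstream of the RefSeq transcript start (build GRCr8) are shown for probasin, the most prostate-restricted of the genes, and for Steap1 and Steap4, the members with the highest mean levels. The RefSeq sequences matched 6 of the 7 members, all but Foxa1. Capitals mark AGAACA, the hexamer of which androgen response elements are built, which reads TGTTCT on the other strand.
Pbsn (chrX:45807984-45808233, minus strand): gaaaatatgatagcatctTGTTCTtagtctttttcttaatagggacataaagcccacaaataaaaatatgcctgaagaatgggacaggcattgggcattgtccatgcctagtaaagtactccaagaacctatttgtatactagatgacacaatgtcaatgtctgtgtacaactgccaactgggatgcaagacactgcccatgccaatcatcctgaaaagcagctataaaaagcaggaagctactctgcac
Steap1 (chr4:29231559-29231808, plus strand): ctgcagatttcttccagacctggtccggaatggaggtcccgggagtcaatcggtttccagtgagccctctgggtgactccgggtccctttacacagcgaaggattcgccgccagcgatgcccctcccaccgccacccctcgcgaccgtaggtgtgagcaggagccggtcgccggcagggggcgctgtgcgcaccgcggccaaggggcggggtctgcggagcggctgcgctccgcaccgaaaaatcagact
Steap4 (chr4:27054770-27055019, minus strand): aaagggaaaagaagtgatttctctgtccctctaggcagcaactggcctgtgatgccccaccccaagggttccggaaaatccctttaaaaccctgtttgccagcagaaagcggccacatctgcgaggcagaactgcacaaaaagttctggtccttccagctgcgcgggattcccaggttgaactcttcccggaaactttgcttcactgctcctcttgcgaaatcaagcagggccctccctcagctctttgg

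Among the 6 member promoters only that of Pbsn held the hexamer, once, beginning 232 bases upstream of the start. Searched on both strands, AGAACA was found in 17.5% of 33469 RefSeq rat promoters of the same length. The full palindrome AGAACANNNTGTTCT, which contains the hexamer and was searched in the same way, was found in 0.0120% of those promoters and in none of the 6. No member promoter held the forkhead motif TGTTTAC on either strand, which 3.21% of all promoters held. A TATAAA box lay 27 bases upstream of the Pbsn start, a sequence present on the coding strand of 8.06% of all promoters. The Steap1 and Steap2 promoters were rich in G and C, at 67.2% and 74% against a median of 51.2%, and held 25 and 29 CpG dinucleotides against a median of 5. Tmprss2 was close to Steap1, at 65.6% with 15 CpG. Pbsn and Folh1 were at the other end, with 40.4% and 41.6% G and C and with 0 and 3 CpG. Steap4 lay between these ends, at 53.6% with 7 CpG. A match is a description of the letters in this window and not a binding site.

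The libraries fell into 2 kinds that did not follow treatment. Summed FPKM per library ran from 651322 to 1025231 and between 12148 and 13503 rows were above 0. Read depth is unknown, because FPKM values alone were used. 10 lung alveolar mRNAs together reached between 27392 and 83748 FPKM in A1, A6, B5 and B9 but 17.7 in A12 and 25.3 in B14, although all 6 libraries are labelled as primary tumor. The fibroblast mRNAs went the opposite way, with summed levels of 3337 in A12 and 4622 in B14 against 304 to 996 in the other 4 libraries. A12 and B14 were each other's nearest library (Pearson r = 0.985 of log2(FPKM + 1) across 10749 rows, which are not independent replicates). Because each kind of library holds rats of both groups, the log2 fold changes of the tested members are also given without A12 and B14. Among A1, A6, B5 and B9, though, lung content went with treatment. The lung alveolar sums were 50982 and 83748 FPKM in A1 and A6 (digitoxin) and 27392 and 35855 FPKM in B5 and B9 (vehicle). In that comparison treatment and lung content cannot be told apart. A doubt whether the values of A1 and B9 were exchanged relative to their labels could not be settled, and the labels were kept, so each difference between digitoxin and vehicle below is for the libraries as labelled. In bulk tissue, fewer cells of a type and less RNA per cell cannot be told apart.

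Probasin and prostate-specific membrane antigen were at or near 0 in the PAIII tumors, whereas mRNAs of the STEAP family and Tmprss2 were plainly measured. Pbsn (chrX:45466156-45481633 in the deposited table) was listed at 0 FPKM in all 6 libraries. Folh1 (chr1:156631300-156702948) was listed at 0.0171 FPKM in A1 and 0.0285 FPKM in B14 and at 0 in the other 4. These low values were found in lung-rich and lung-poor libraries and in both treatment groups. A 0 in this table is a listing and not proof of absence, since genes that cells use throughout, Rpl8 and Rps19, which encode ribosomal proteins, were also listed at 0 in all 6 libraries. Those 2 genes were each given on 2 rows. Of the 467 symbols given on more than 1 row, 72.8% were at 0 in all 6 libraries, against 14.2% of the 16563 symbols given on 1 row, the kind to which Pbsn and Folh1 belong.

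**Figure D1:**
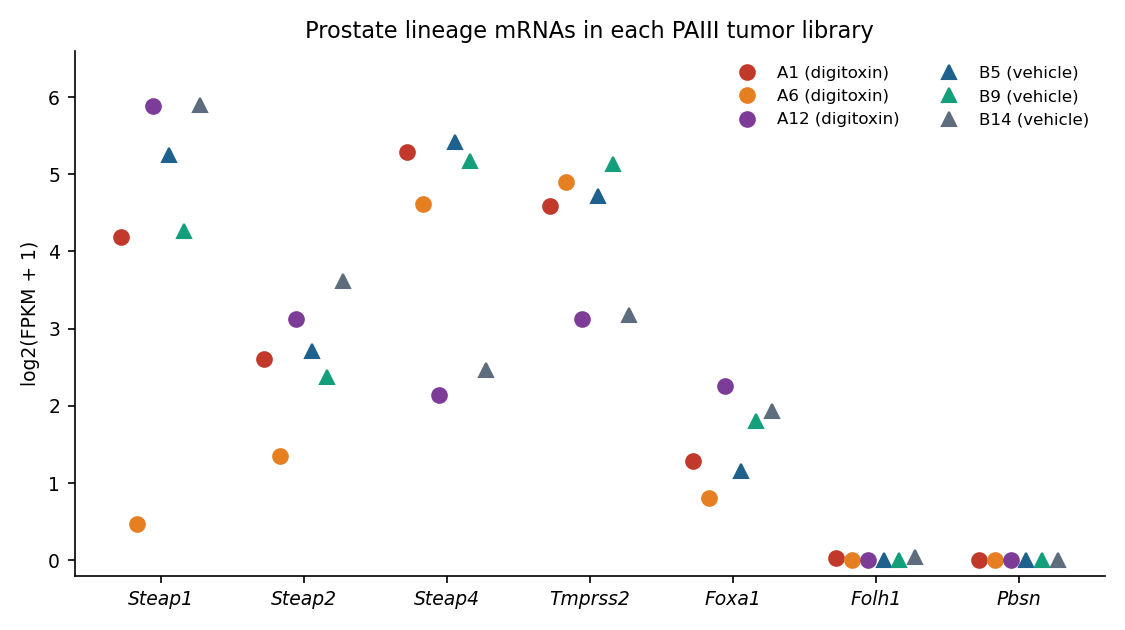
Levels of the 7 members in each library, as log2(FPKM + 1); each point is 1 rat, circles for digitoxin and triangles for vehicle. A12 and B14 lie together above the other 4 libraries for Steap1, Steap2 and Foxa1 and below them for Steap4 and Tmprss2, while Folh1 and Pbsn lie at or near 0 throughout.

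Steap1 had the highest mean level of the members and the widest range. Its levels (chr4:25343984-25354493) were 17.2, 0.381 and 58.3 FPKM in the digitoxin rats A1, A6 and A12, and 37.2, 18.3 and 58.5 FPKM in the vehicle rats B5, B9 and B14. The highest library was 153 times the lowest. A12 and B14 were all but equal at the top, A6 stood alone at the bottom, and the groups overlapped. In rank among all rows of the same library Steap1 went from the 37.3 percentile in A6 to the 88.5 percentile in both A12 and B14.

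Steap2, which encodes a metalloreductase, had a similar pattern, with a lower mean level. Its levels (chr4:25414630-25434255) were 5.12, 1.55 and 7.74 FPKM in A1, A6 and A12, and 5.57, 4.19 and 11.3 FPKM in B5, B9 and B14. B14 and A12 were again the highest libraries and A6 the lowest. The Steap1 and Steap2 rows lie 60.1 kb apart on the same chromosome. Their levels did not keep a fixed ratio: Steap1 over Steap2 was 3.37, 0.246 and 7.54 in A1, A6 and A12, and 6.69, 4.36 and 5.20 in B5, B9 and B14. Steap2 was the higher of the pair in A6 alone.

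Steap4, the third measured family member and a metalloreductase that is also known from inflamed and metabolic tissues, ran the opposite way between the kinds of library. Its levels (chr4:23040107-23062780) were 38.0, 23.5 and 3.40 FPKM in A1, A6 and A12, and 41.7, 34.9 and 4.54 FPKM in B5, B9 and B14. The 4 lung-rich libraries lay between 23.5 and 41.7 FPKM and the other 2 libraries, 1 of each group, below 5 FPKM. Steap1 over Steap4 was therefore 17.1 in A12 and 12.9 in B14 but between 0.0162 and 0.893 elsewhere. Whether host cells carried the Steap4 mRNA was not tested. Steap3, the family member of iron uptake in red cell precursors and no member of the list, was at 19.1, 2.65 and 58.8 FPKM in A1, A6 and A12 and at 39.0, 22.0 and 56.6 FPKM in B5, B9 and B14. Steap1 over Steap3 lay between 0.832 and 1.03 in 5 libraries and was 0.144 in A6. The ratios between genes given here were chosen after the values were seen.

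Tmprss2, whose promoter drives the common ERG fusion of human prostate cancer, also sat higher in the lung-rich libraries. Its levels (chr11:41574414-41613792) were 23.1, 28.8 and 7.69 FPKM in A1, A6 and A12, and 25.3, 34.1 and 8.08 FPKM in B5, B9 and B14. A12 and B14 were the 2 lowest libraries, and the other 4 lay between 23.1 and 34.1 FPKM. Tmprss2 is known from lung and other epithelia as well as from prostate, and its level there was not measured apart from tumor here.

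Foxa1 was low in every tumor. Its levels (chr6:88041149-88074240) were 1.44, 0.745 and 3.79 FPKM in A1, A6 and A12, and 1.22, 2.49 and 2.82 FPKM in B5, B9 and B14. A12 and B14 were highest and A6 lowest, and Foxa1 ranked between the 41.1 and 51.6 percentiles of all rows. Foxa2, a related forkhead factor of lung and other endoderm and no member of the list, was at 39.7, 53.1 and 7.40 FPKM in A1, A6 and A12 and at 23.9, 26.0 and 5.07 FPKM in B5, B9 and B14. Foxa2 over Foxa1 ran from 10.4 to 71.2 in the 4 lung-rich libraries and was 1.95 in A12 and 1.80 in B14. Tp63, the rat row for p63, was at 0.279, 0.135 and 1.43 FPKM in A1, A6 and A12 and at 0.626, 0.666 and 1.75 FPKM in B5, B9 and B14, so that it exceeded 1 FPKM in A12 and B14 alone.

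By mean FPKM over the 6 libraries the order was Steap1 (31.7), Steap4 (24.3), Tmprss2 (21.2), Steap2 (5.90), Foxa1 (2.09), Folh1 (0.00760) and Pbsn (0). The first 3 did not differ beyond their spread: Steap1 exceeded Steap4 in 2 of 6 libraries, and Steap4 exceeded Tmprss2 in 3 of 6. Tmprss2 exceeded Steap2 in 4 of 6 libraries, with the lung-poor A12 and B14 the other way. Steap2 exceeded Foxa1 in 6 of 6, and Foxa1 exceeded Folh1 in 6 of 6. Among 10740 symbols with a mean of at least 1 FPKM, A12 and B14 were both above the other 4 libraries for 30.1% and both below for 29.3%, so the split of the 5 measured members, 3 above and 2 below, followed a split that most measured genes shared in these libraries.

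**Figure D2:**
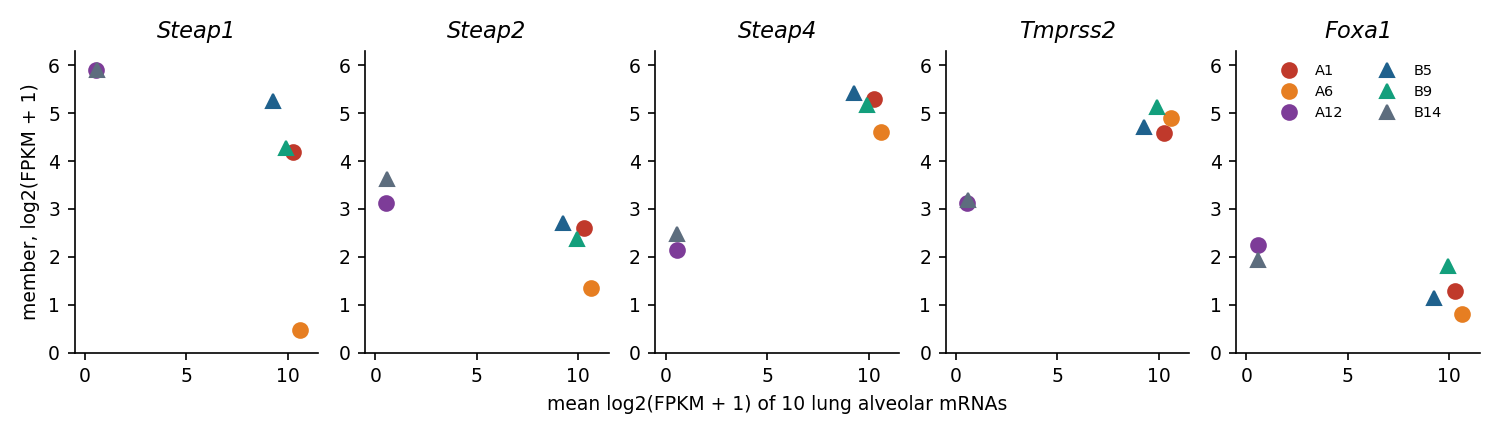
Each panel plots 1 member, as log2(FPKM + 1), against the mean log2(FPKM + 1) of 10 lung alveolar mRNAs; points are rats, circles for digitoxin (A) and triangles for vehicle (B). The lung-poor A12 and B14 stand at the left of each panel, and among the lung-rich libraries A6 is the lowest for Steap1, Steap2, Steap4 and Foxa1.

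The comparison of digitoxin with vehicle asked whether treatment changed these mRNAs, and no member passed the test. Mean Steap1 was 25.3 ± 29.8 FPKM with digitoxin and 38.0 ± 20.1 FPKM with vehicle (SD, n = 3 each), a log2 fold change of -1.62 ± 1.35 (SE, on the log2(FPKM + 1) scale; adjusted p = 0.926, limma). For Steap2 the means were 4.80 ± 3.11 and 7.01 ± 3.75 FPKM, and the log2 fold change was -0.54 ± 0.58 (adjusted p = 0.926). The change of Steap1 was little larger than its standard error, and that of Steap2 was smaller than its own.

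Steap4 was at 21.6 ± 17.4 FPKM with digitoxin and 27.0 ± 19.8 FPKM with vehicle, a log2 fold change of -0.34 ± 1.10 (adjusted p = 0.961). Tmprss2 was at 19.8 ± 10.9 and 22.5 ± 13.2 FPKM, a log2 fold change of -0.14 ± 0.68 (adjusted p = 0.970). Foxa1 was at 1.99 ± 1.59 and 2.18 ± 0.842 FPKM, a log2 fold change of -0.18 ± 0.49 (adjusted p = 0.951). These 3 differences were smaller than their standard errors in the main fit. With the lung alveolar level as a covariate, Steap4 was at -0.50 ± 0.29 (adjusted p = 0.631) and Tmprss2 at -0.24 ± 0.22 (adjusted p = 0.668, limma). Both changes then exceeded their standard errors, while that of Foxa1, at -0.13 ± 0.33 (adjusted p = 0.869), did not. Folh1 and Pbsn were below the minimum mean of 1 FPKM and were not tested.

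Over all 10749 rows tested, 0 (0%) had an adjusted p under 0.05 and 36 (0.335%) an unadjusted p under 0.05, and no member was among the latter. All 5 tested members had a lower mean log2 level with digitoxin, a direction that 64.9% of all rows shared, with a median log2 fold change of -0.16 over all rows. The 2 groups overlapped for each of the 5 tested members, and failed to overlap for 4.16% of all rows tested.

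The size of these changes, and for Foxa1, Tmprss2 and Steap4 also the direction, depended on single libraries. Without A6 the log2 fold change of Steap1 was -0.10 and that of Steap2 -0.03, and that of Foxa1 turned to 0.14. Without A12, Steap1 was at -2.81 (adjusted p = 0.251), Steap2 at -0.92, Steap4 at 0.60 and Tmprss2 at 0.40. Steap4 and Tmprss2 also turned higher without B5, at 0.19 and 0.04, and without B9, at 0.07 and 0.25. Median-of-ratios scaling moved the median of all rows from -0.16 to 0.02 and Tmprss2 to 0.05, which left 4 of 5 members lower. With A1 and B9 exchanged, a description added after seeing the data, 3 of 5 members would be lower, with Foxa1 at 0.16 and Tmprss2 at 0.22. Without both A12 and B14, Steap1 was at -2.43 (adjusted p = 0.390) and Steap2 at -0.56 (adjusted p = 0.585). In the same 4 libraries Steap4 was at -0.34 (adjusted p = 0.585), Foxa1 at -0.43 (adjusted p = 0.621) and Tmprss2 at -0.18 (adjusted p = 0.761). With the tumors set against each other by replicate number, Steap1 stayed at -1.62 with a smaller standard error of 0.68 (adjusted p = 0.638).

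**Figure D3:**
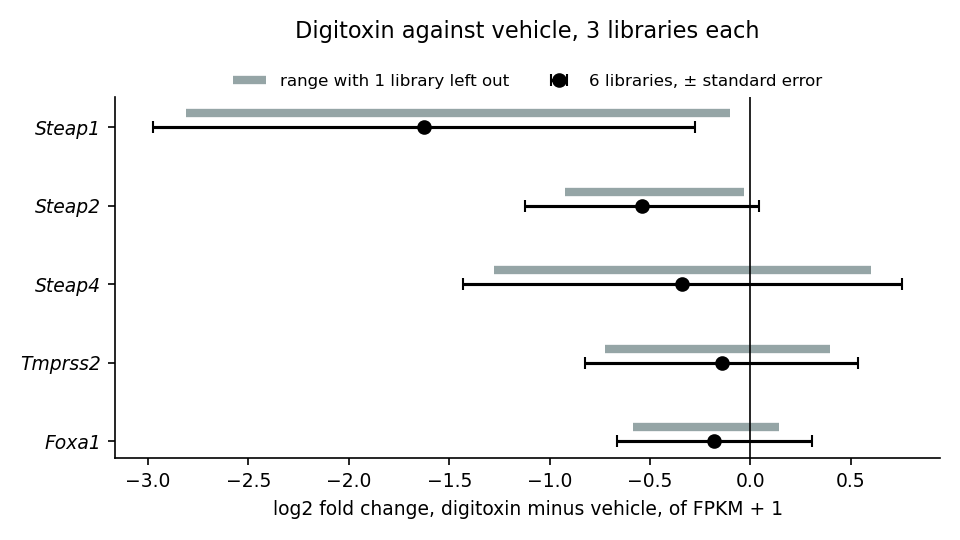
Log2 fold change of the 5 tested members, digitoxin minus vehicle, on the log2(FPKM + 1) scale; points with bars give the value over 6 libraries with its standard error, and grey bars the range when 1 library was left out. Only Steap1 and Steap2 stayed on the lower side throughout those ranges, and both came close to 0 without A6.

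A6 also had the lowest level of 12 of the 15 measured luminal epithelial mRNAs (keratins, claudins and epithelial transcription factors), though Spdef was highest there at 10.3 FPKM. Their sum, in which Krt8 and Krt19 weigh most, was 1821 FPKM in A6 against 4009 to 7143 FPKM in the other 5 libraries, and the lung airway mRNAs summed to 131843 FPKM there, the highest of the 6. Of the 15 luminal mRNAs, 0 passed the adjusted threshold, 1 was higher and 14 lower in the digitoxin group (median log2 fold change -0.55). Krt8, a simple-epithelium keratin, ranged from 398 to 2095 FPKM, Krt19 from 599 to 1865 FPKM and the adhesion molecule Epcam from 208 to 525 FPKM. Epithelial mRNAs were thus abundant in each tumor, the lung-poor A12 and B14 included (Krt8 at 2095 and 1629 FPKM), while the part of the A6 composition in its low Steap1, Steap2 and Foxa1 levels was not tested.

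Cofactors of androgen-driven transcription were well measured for the most part. Of the genes of this list, 8 were tested, 0 passed, and 3 were higher and 5 lower with digitoxin (median log2 fold change -0.44). Fkbp4, a chaperone partner of steroid receptors, ran from 64.6 to 206 FPKM, the coactivator Ncoa4 from 39.9 to 89.3 FPKM, and the corepressor Ncor1 from 8.84 to 25.4 FPKM. Ncoa4 was lower in all 3 digitoxin rats (70.1, 39.9 and 50.8 FPKM) than in any vehicle rat (86.9, 89.3 and 70.2 FPKM), with a log2 fold change of -0.64 ± 0.27 (adjusted p = 0.926). Of the 132 tested genes of all lists, 6 had groups that did not overlap, against 4.16% of all rows: Ncoa4, Nr3c1, Dsg3, Msr1 and Zeb2 were lower on average with digitoxin and Col17a1 was higher. An exchange of A1 and B9 would make the groups of all 6 overlap by arithmetic alone, so it says nothing about these genes. Hoxb13, a prostate homeobox factor, stayed at or below 0.0937 FPKM, and Gata2, which is also a lung and endothelial factor, was at 4.99 and 4.56 FPKM in A12 and B14 and at 15.3 to 41.9 FPKM elsewhere.

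The glucocorticoid, mineralocorticoid, estrogen and progesterone receptor genes differed widely in level. The glucocorticoid receptor gene Nr3c1 was at 22.4, 13.6 and 21.0 FPKM in A1, A6 and A12 and at 25.6, 32.5 and 28.5 FPKM in B5, B9 and B14, groups that did not overlap, with a log2 fold change of -0.60 ± 0.27 (adjusted p = 0.926). Of the 5 genes of this list, 2 were tested, 0 passed, and 0 were higher and 2 lower (median log2 fold change -0.49). The mineralocorticoid receptor gene Nr3c2 ran from 1.23 to 3.49 FPKM. Esr2 and Pgr, for the second estrogen receptor and the progesterone receptor, were listed at 0 in all 6 libraries, and Esr1 did not exceed 0.0725 FPKM. Nr3c1 was thus the only steroid receptor gene of this list above 10 FPKM in every library.

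**Figure D4:**
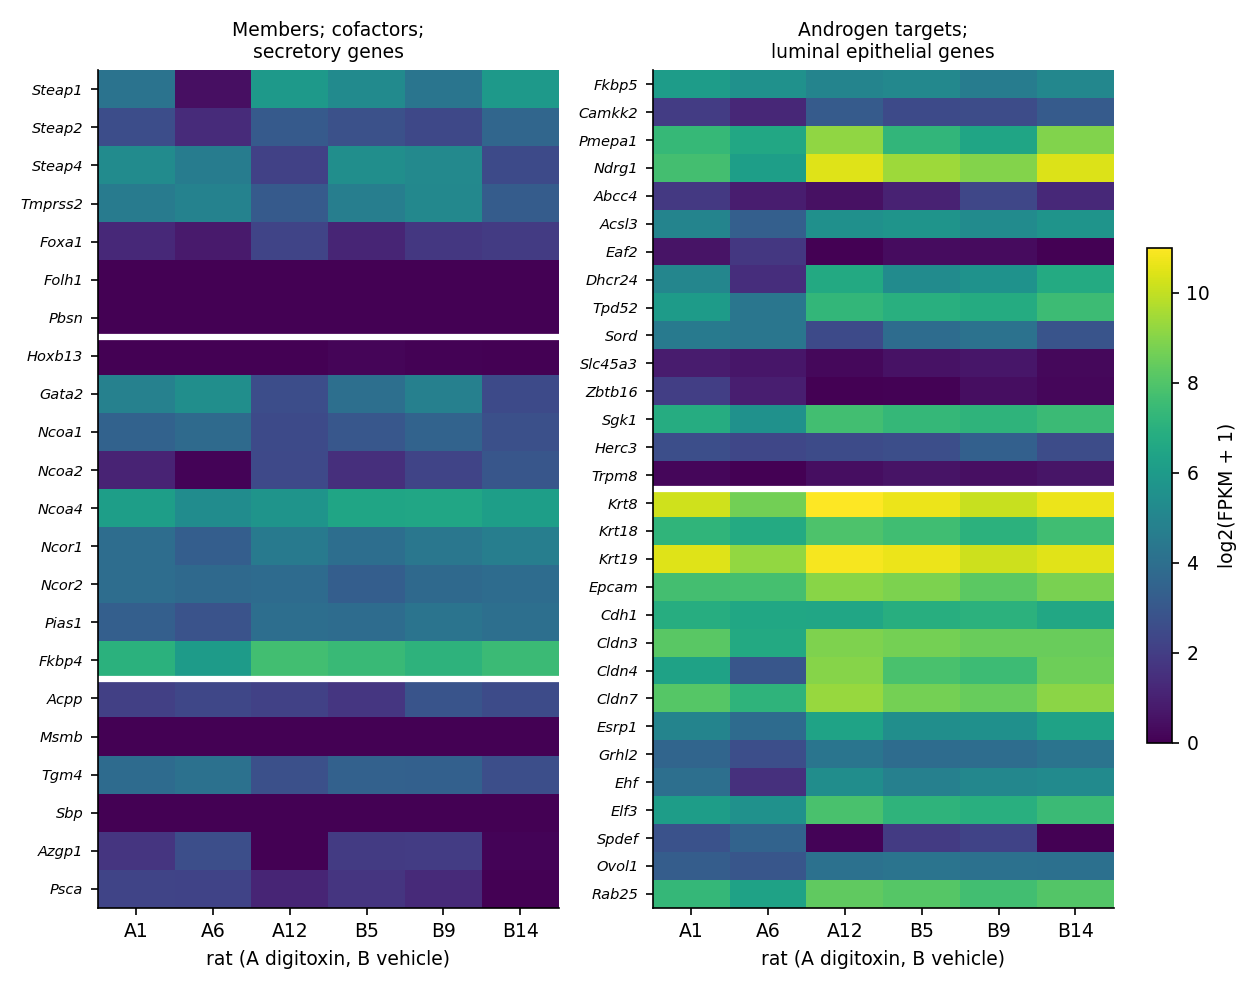
Levels of the 7 members, cofactors, secretory genes, androgen targets and luminal epithelial genes in each library, as log2(FPKM + 1) from dark (0) to bright; columns are rats, A for digitoxin and B for vehicle. Hoxb13, Msmb, Sbp, Folh1 and Pbsn are dark throughout, and Krt8 and Krt19 are the brightest rows.

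The androgen targets were spread from 0.187 to 1409 FPKM among those named here. Of the target genes, 11 were tested, 0 passed, and 3 were higher and 8 lower with digitoxin (median log2 fold change -0.63). Slc45a3, a prostate membrane transporter, stayed between 0.187 and 0.766 FPKM. Fkbp5, which also answers to glucocorticoids, was at 67.3, 46.4 and 30.6 FPKM in A1, A6 and A12 and at 34.3, 23.3 and 33.5 FPKM in B5, B9 and B14. Ndrg1, which also responds to hypoxia, was at 209, 71.1 and 1409 FPKM in A1, A6 and A12 and at 674, 493 and 1352 FPKM in B5, B9 and B14. The highest levels of Ndrg1 were thus in A12 and B14 and the lowest in A6, as for Steap1. Pmepa1, a regulator that TGF-beta also induces, was at 572 and 483 FPKM in A12 and B14 against 87.7 to 163 FPKM elsewhere.

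The prostate secretory genes other than Pbsn ranged from 0 to 16.0 FPKM. Of 6 in the table, 4 were tested, 0 passed, and 3 were higher and 1 lower with digitoxin (median log2 fold change 0.26). Msmb was listed at 0 in all 6 libraries, and Sbp, for spermine-binding protein, was above 0 only in A1 at 8.85e-07 FPKM. Tgm4, the prostate transglutaminase, was the highest, at 13.5, 16.0 and 5.50 FPKM in A1, A6 and A12 and at 9.78, 9.28 and 5.22 FPKM in B5, B9 and B14. A12 and B14 had the 2 lowest Tgm4 levels. Acpp, for prostatic acid phosphatase, ran from 2.33 to 6.28 FPKM and Psca, a surface antigen, from 0 to 3.84 FPKM. Azgp1, a secreted lipid-mobilizing protein, was at 0 and 0.0750 FPKM in those 2 libraries and at 2.21 to 5.33 FPKM in the rest.

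Basal epithelial genes were measured unevenly. Of 11 in the table, 9 were tested, 0 passed, and 4 were higher and 5 lower with digitoxin (median log2 fold change -0.48). Krt5, the keratin that pairs with Krt14 in prostate basal cells, did not exceed 0.939 FPKM. Krt14 ran from 4.96 to 27.4 FPKM and Krt17 from 1.20 to 41.3 FPKM. The Krt5 row spans 152879 bases and encloses the Krt1 and Krt2 rows, against 4060 bases for Krt14. Whether this affected the Krt5 level was not tested. Col17a1, for a hemidesmosome collagen, was at 5.05, 7.55 and 4.86 FPKM in A1, A6 and A12 and at 2.05, 4.34 and 3.98 FPKM in B5, B9 and B14, with a log2 fold change of 0.63 ± 0.37 (adjusted p = 0.926). The hemidesmosome integrin gene Itgb4 was at 4.10 FPKM in A6 and at 42.4 to 109 FPKM in the other 5 libraries. Skin keratinocyte mRNAs, of which 4 of 7 were in the table, summed to between 0.790 and 2.14 FPKM, so the markers of overlying skin were at or near 0.

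Genes that act beside the members in metal uptake and surface proteolysis were also listed. Of 7 iron and copper uptake genes, 6 were tested, 0 passed, and 1 was higher and 5 lower with digitoxin (median log2 fold change -0.58). Tfrc, the transferrin receptor, ran from 7.51 to 27.4 FPKM with A6 lowest, and the copper importer Slc31a1 from 3.37 to 34.5 FPKM, again with A6 lowest. Of 8 membrane serine protease and inhibitor genes, 7 were tested, 0 passed, and 5 were higher and 2 lower (median log2 fold change 0.18). St14, for matriptase, exceeded Tmprss2 in all 6 libraries, at 50.7 to 128 FPKM, and Hpn, for hepsin, was at 0 and 0.0581 FPKM in A12 and B14 against 3.63 to 8.21 FPKM elsewhere. Of 7 folate genes, which are listed beside Folh1 for its action on folate polyglutamates, 6 were tested, 0 passed, and 3 were higher and 3 lower (median log2 fold change 0.05). Naalad2, the nearest relative of Folh1 in that list, did not exceed 0.216 FPKM.

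For each member with a mean of at least 1 FPKM, the 3 genes with the most similar pattern over the 6 libraries were found by the root mean square (RMS) difference of log2(FPKM + 1), each gene centred on its own mean. Steap1 was followed most closely by Dsc2 (RMS difference 0.231), Pkp1 (0.263) and Emp1 (0.270), against its own RMS spread of 1.86. Dsc2, for a desmosomal cadherin, was at 37.3, 2.21 and 148 FPKM in A1, A6 and A12 and at 81.4, 64.4 and 156 FPKM in B5, B9 and B14. Pkp1, for another desmosome protein, was likewise lowest in A6 at 1.10 FPKM and highest in A12 and B14 at 94.9 and 93.0 FPKM.

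Nearest to Steap2 were Cdc73 (0.138), Dnajb9 (0.144) and Eif5a2 (0.149), against a spread of 0.70. Nearest to Foxa1 were Aars2 (0.0803), Tbcd (0.0878) and Cnot3 (0.0943), against a spread of 0.50. Tmprss2 had Ifi44 (0.0750), Oas1a (0.0966) and Fbp1 (0.108) nearest, against a spread of 0.81. Ifi44 was at 12.3, 15.5 and 4.23 FPKM in A1, A6 and A12 and at 14.3, 20.8 and 4.75 FPKM in B5, B9 and B14. Steap4 had Aqp4 (0.258), Pon1 (0.262) and Zdhhc2 (0.330) nearest, against a spread of 1.35. Aqp4, a water channel of lung and other tissues, was listed at 0 in A12 and B14 and lay between 6.20 and 9.39 FPKM elsewhere. With 6 points and libraries of 2 kinds, such likeness is a description only.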

How the data were processed

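Poly(A) libraries from 6 PAIII tumors, 3 per group as the labels give them, were sequenced, aligned and quantified by the authors with Bowtie2, TopHat2, Cufflinks and Cuffdiff, and the deposited values are FPKM per gene and library. The submitters' processing notes name the human build hg19. The rat build of the table's coordinates is not given in the sources used here, and no coordinate was carried between builds. Read depth is unknown, since low values gave no common read step, and a value's precision is known only from the spread between rats. From the deposited FPKM, log2(FPKM + 1) was computed, and rows averaging 1 FPKM or more were kept. Groups were compared with limma 3.58.1 (R 4.3.3, moderated test with a trend, two-sided). Adjustment was by Benjamini-Hochberg over all 10749 rows, with a threshold of 0.05. The fit was checked on simulated independent values without kinds of library, a check that does not cover the split seen here. Listed symbols on several rows were represented by the row with the highest mean. Replicate numbers were checked for pairing: deviations from the group means correlated at r = 0.426, 0.606 and 0.869 in the pairs A1 with B5, A6 with B9 and A12 with B14, all over 0.1, so a fit with the replicate number as a block was also made, although r was 0.644 for A1 with B9 and 0.612 for A6 with B5. The labels do not say that a number marks a shared litter or day. Alternatives changed the pseudocount, the filter, the scaling, the trend, the block, the libraries and a lung covariate. The text names all members, genes of lists beside the counts over their list, and the 3 nearest genes of each measured member. The members and lists were chosen with earlier results of these data known. Some listed genes are not reported here. Promoters came from RefSeq GRCr8, and figures were drawn with matplotlib 3.10.9 under Python 3.11.15.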

Additional observations from a re-analysis of the deposited data

How the results depend on the processing

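0 members and 0 list genes passed the adjusted threshold in each of the 14 settings with a test, the main one included, which tested 5 members (6 without the filter) and 130 to 132 list genes (166 without the filter). The number of members lower with digitoxin ranged from 3 to 5 when 1 library was left out, with 3 without A12, without B5 or without B9, and was 4 under median-of-ratios scaling and 6 of 6 without the filter on low values, which added Folh1. Foxa1 turned higher without A6 (0.14), and its leave-one-out range was -0.58 to 0.14. Tmprss2 turned higher under median-of-ratios scaling (0.0477) and without A12, B5 or B9, with a leave-one-out range of -0.72 to 0.40. Steap4 turned higher without A12, B5 or B9, with a leave-one-out range of -1.28 to 0.60. Steap1 and Steap2 were lower in 13 of 13 alternatives with a test, from -2.81 to -0.10 and from -0.92 to -0.03. With A1 and B9 exchanged, a setting with no test that was added after seeing the data, 3 of 5 members were lower, with Foxa1 at 0.16 and Tmprss2 at 0.22. The cause of these shifts was not tested. With the replicate block 446 of all rows had an unadjusted p under 0.05, against 36 without the block, and the pairing changed no adjusted call (Steap1 -1.62, adjusted p = 0.638; Steap2 -0.54, adjusted p = 0.640). The lung covariate gave Steap1 -1.48 (adjusted p = 0.631) and 367 rows at an unadjusted p under 0.05. Without A12, 2128 rows reached an unadjusted p under 0.05, Steap1 among them, and the adjusted count stayed at 0. Without B14, and without both A12 and B14, 2 rows passed the adjusted threshold, none of them a member. With 3 rats per group, the standard errors, up to 1.35 on the log2 scale for Steap1, limit what could be detected.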

Other observations

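The enzymes of androgen metabolism were uneven in level. Of 11 listed genes, 5 were tested, 0 passed, and 1 was higher and 4 lower with digitoxin (median log2 fold change -0.10). Cyp17a1 and Hsd3b1, for early steps of steroid synthesis, were above 0 in A1 alone, at 0.0430 and 0.0266 FPKM, and Srd5a2, for the prostate form of 5-alpha-reductase, did not exceed 0.282 FPKM, whereas Srd5a1, for the other classical form, ran from 4.15 to 11.7 FPKM. Akr1c14, for a 3-alpha-hydroxysteroid dehydrogenase, was at 0.650 and 1.39 FPKM in A12 and B14 and at 15.8 to 27.6 FPKM in the other 4 libraries. Neuroendocrine genes, markers of one route of prostate tumor progression, were mostly near 0. Of 8 in the table, 6 stayed below 1 FPKM in all 6 libraries, among them Eno2, whose symbol is on 2 rows and listed at 0 like Rpl8 and Rps19, and Ncam1, at 2.28, 0.0540 and 4.16 FPKM in A1, A6 and A12 and at 0.450, 0.927 and 8.12 FPKM in B5, B9 and B14, was the only 1 tested, with 0 higher and 1 lower (log2 fold change -0.17). Scg2 reached 1.35 FPKM in A1, and the chromogranin gene Chga did not exceed 0.368 FPKM.

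Mesenchymal genes were measured beside the epithelial ones. Of 8 in the table, 7 were tested, 0 passed the adjusted threshold, and 2 were higher and 5 lower with digitoxin (median log2 fold change -0.24). Vim, for vimentin, ran from 1117 to 1975 FPKM. Zeb2, a transcriptional repressor of E-cadherin, was at 2.69, 0.344 and 2.53 FPKM in A1, A6 and A12 and at 3.66, 6.65 and 6.01 FPKM in B5, B9 and B14, groups that did not overlap as labelled (log2 fold change -1.28 ± 0.50, limma adjusted p = 0.926), and was the only gene of the 132 tested from the lists with an unadjusted p under 0.05. Over all rows tested, 0.335% had such a p and 4.16% had groups that did not overlap as labelled.

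Markers of host cells differed in how far they moved with the kind of library. A12 and B14 were both below the other 4 libraries for 10 of 10 lung alveolar genes, by which the kinds were told apart. They were also both below for 6 of 7 lung airway, 9 of 10 endothelial, 4 of 8 neutrophil, 3 of 5 macrophage and 1 of 2 mesothelial genes. Both were above the others for 8 of 10 fibroblast genes. Among all symbols with a mean of at least 1 FPKM, both were below for 29.3% and both above for 30.1%. Counts higher and lower with digitoxin were 9 and 1 of 10 lung alveolar genes (median log2 fold change 0.67), 7 and 0 of 7 lung airway genes (1.67), 9 and 1 of 10 endothelial genes (0.63), 5 and 4 of 9 fibroblast genes (0.03), 2 and 4 of 6 neutrophil genes (-0.33), 1 and 4 of 5 macrophage genes (-0.22) and 1 and 1 of 2 mesothelial genes (-0.16), and 0 of these passed the adjusted threshold. These counts stand beside the 64.9% of all rows tested that had a lower mean log2 level with digitoxin. No skin keratinocyte gene had a mean of at least 1 FPKM. Summed endothelial levels were 129 and 143 FPKM in A12 and B14 and 454 to 1885 FPKM in the other libraries. Summed neutrophil levels, mostly S100a8 and S100a9, were 1366 and 3458 FPKM in A12 and B14 and 11019 to 62515 FPKM elsewhere, whereas Trem1 was highest in B14.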
